A study of Drosophila melanogaster with 24 samples.

Results

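The cytochrome P450 family was followed on 24 expression arrays of su(Hw) mutant and heterozygous Drosophila melanogaster. Members were taken by name, as every probe with a single gene symbol made of Cyp, digits, lower-case letters and digits, which gave 83 probes for 80 genes among 14444 probes analysed and 11607 genes. The cyclophilins Cyp1 and Cyp40 do not belong to the family. Cyp6d5 was left out as lying near su(Hw), 41 protein-coding genes away, although the kept member Cyp313a1 is 18 away. Names of another form (Cyp12d1-d, Cyp12d1-p, the pseudogene-named probes Cyp6a15Psi and Cyp6t2Psi, and Cypl) were also outside the rule. Each array set RNA of 1 genotype against a pool of wild-type RNA from the same tissue, either whole animals at the white pre-pupal stage or their wing imaginal discs, the epithelia from which the adult wings form. The null, su(Hw)/Df, carried the chromosome w; Su(Hw)v, cas X/K (with its CaS transposon) over the deletion Df(3R)ED5644. The heterozygote su(Hw)/+ carried the same Su(Hw)v, cas X/K chromosome over an Oregon-R chromosome, and Df/+ carried Df(3R)ED5644 over an Oregon-R chromosome. Both mutant chromosomes were kept over the balancer TM6B, Tb, and non-Tubby animals were picked. An extraction pooled 10 to 20 larvae or, by the labels, 6 wing discs. Each genotype had 4 arrays in each tissue, 2 with the genotype in Cy3 and 2 with the genotype in Cy5. The heterozygotes therefore share an outcross that the null does not have, and genetic background cannot be told apart from the loss of su(Hw) in the comparison of the null with them.

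P450 enzymes are haem proteins that insert oxygen into small molecules, taking electrons from a reductase or, in mitochondria, from a ferredoxin. Insects use them to clear plant toxins and insecticides and to make and break down hormones and cuticle lipids, and in fly larvae many are most active in the midgut, the Malpighian tubules and the fat body. Insect P450s fall into the CYP2, CYP3, CYP4 and mitochondrial clans. The CYP3 and CYP4 clans hold most detoxification enzymes, whereas several genes of the CYP2 and mitochondrial clans act on the moulting hormone ecdysone. The family on these arrays comprised 4 genes of the CYP2 clan, 37 of the CYP3 clan, 32 of the CYP4 clan and 7 of the mitochondrial clan.

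The values are log2 ratios of a genotype to the pool, so 1 unit is a doubling, and no order of abundance between genes can be read from them. In whole animals a lower ratio may stand for fewer cells of a type or for less RNA per cell, which cannot be told apart here. The su(Hw) transcript itself averaged -2.92 ± 0.56 in null larvae, -0.54 ± 0.25 in su(Hw)/+ and -0.33 ± 0.20 in Df/+ (SD, n = 4 each), and in wing discs -2.28 ± 0.62 in the null, -0.36 ± 0.50 in su(Hw)/+ and -0.65 ± 0.46 in Df/+ (SD, n = 4 each).

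P450 transcripts were measured less often than other genes. A P450 probe had a value on all 12 larval arrays in 22.9% of cases (19 of 83), against 44.5% of all probes, and on all 12 disc arrays in 2.41% (2 of 83), against 23.1% of all probes. A missing value marks a spot that failed the authors' quality filter. A larval array held 36 to 59 P450 probes, with a median of 49.5 when the genotype was in Cy3 and 39.0 when it was in Cy5. A disc array held 5 to 55, and the lowest was su(Hw)/Df replicate 2. The disc comparisons therefore rest on few members. In larvae 6 genes had no value on any array: Cyp303a1, which is needed for normal bristle structure, Cyp6t3, which acts in ecdysone synthesis, and Cyp313a1, Cyp49a1, Cyp4d21 and Cyp6a19. A further 35 probes had only 1 to 5 larval values.

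**Figure D1:**
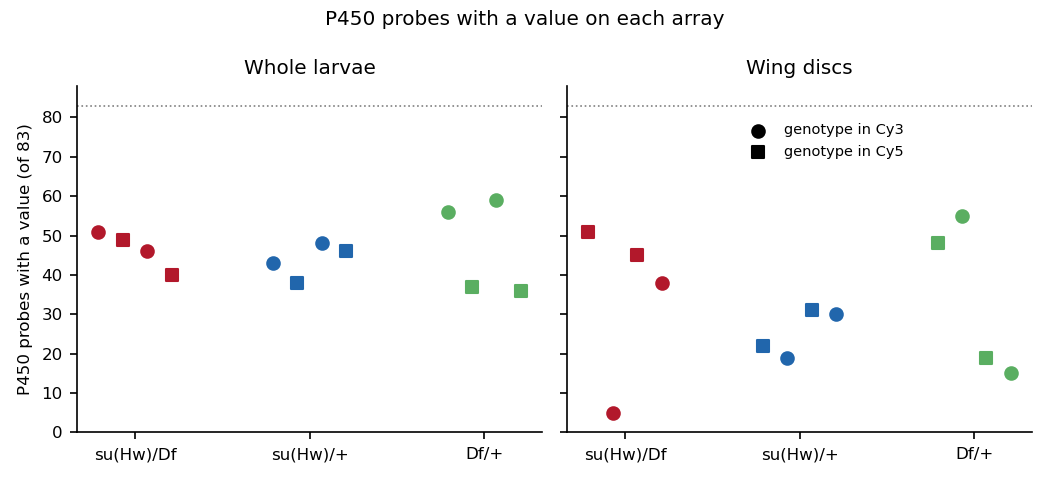
Number of the 83 P450 probes with a value on each array (y axis; the dotted line marks 83), by genotype (x axis) and tissue; circles have the genotype in Cy3 and squares in Cy5, and each point is 1 array. Larval arrays lie between 36 and 59, while disc arrays spread between 5 and 55.

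The comparison of su(Hw)/Df with both heterozygotes asks which transcripts differ in the null from the mean of the heterozygotes, and the pool cancels in it. In larvae 32 P450 genes had at least 3 values in each genotype. Of these 1 was higher and 1 was lower at a limma adjusted p (Benjamini-Hochberg) under 0.05, whereas among all 8197 probes tested 1.09% were higher and 1.76% lower. The median P450 difference was -0.01, against 0.02 over all probes tested. Cyp9h1, of the CYP3 clan, rose, and Cyp312a1, of the CYP4 clan, fell.

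Cyp9h1 had log2 ratios to the pool of 1.73, 2.05, 1.57 and 1.12 in null larvae, of 0.90, 0.15, 0.96 and 0.91 in su(Hw)/+ and of 0.48, -0.31 and -0.01 on the 3 Df/+ arrays with a value. All 4 null arrays lay above all 7 heterozygous arrays. Among the 32 P450 genes it was the only one whose null arrays lay wholly to one side of all heterozygous arrays, and 3.46% of all probes tested did so. The difference was 1.22 (SE 0.23), a 2.34-fold rise, with a limma adjusted p of 0.012. An exact permutation test over the arrays (2-sided, 4 against 7, 330 splits) gave p = 0.0061. It took the heterozygous arrays as 1 group with a plain mean, from which the null differed by 1.18. It used the arrays that picked the gene and is no separate evidence. Set against Df/+ alone the difference was 1.56 (limma adjusted p = 0.012), and against su(Hw)/+ alone it was 0.89 and did not pass (limma adjusted p = 0.12). Within a dye orientation it was 1.07 in Cy3 and 1.47 in Cy5. The gene could not be tested without Df/+ replicate 1, 2 or 3, which leaves 2 values for that genotype, and passed without any other single array.

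Cyp312a1 had log2 ratios of -1.41, -1.89, -2.01 and -1.76 in null larvae, of -1.35, -1.59, -1.25 and -1.11 in su(Hw)/+ and of -0.51, -0.30, -0.54 and -0.92 in Df/+. The transcript was below the pool on all 12 arrays, and the null arrays overlapped those of su(Hw)/+ but not those of Df/+. The difference from both heterozygotes was -0.82 (SE 0.16), a 1.77-fold fall, with a limma adjusted p of 0.015. An exact permutation test on the same arrays (2-sided, 4 against 8, 495 splits), again no separate evidence, gave p = 0.0101. Against Df/+ alone it was -1.20 (limma adjusted p = 0.0052), and against su(Hw)/+ alone -0.44 (limma adjusted p = 0.29). Without su(Hw)/Df replicate 3 the difference from both was -0.74 and the limma adjusted p 0.055.

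Another 7 genes differed by 0.6 or more without passing. Cyp9f2, of the CYP3 clan, had ratios of -1.07, -1.23, -1.45 and -2.60 in null larvae, of 0.27, -0.12, 0.15 and -0.50 in su(Hw)/+ and of -0.09, -0.92, -1.43 and -0.66 in Df/+. Its difference was -1.18 (limma adjusted p = 0.051), and the lowest value, on null replicate 4, stood apart from the other null arrays. Cyp6a13 differed by 1.25 (limma adjusted p = 0.085), Cyp309a1 by 0.94 (limma adjusted p = 0.10), Cyp6a17 by -0.94 (limma adjusted p = 0.10), Cyp12b2 by 0.75 (limma adjusted p = 0.18), Cyp4e3 by 0.66 (limma adjusted p = 0.60) and Cyp4ac3 by -0.64 (limma adjusted p = 0.18). All 7 overlapped the heterozygotes on at least 1 array. The other 23 genes differed by -0.44 to 0.48. The 95% interval of a single gene had a median half-width of 0.50 over the 32 genes, before any adjustment for the number of probes. For the gene nearest to the heterozygotes, Cyp4e2, the interval ran from -0.36 to 0.35, and for Cyp6a23 it ran from -0.76 to 0.77.

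With each heterozygote taken alone 34 P450 genes could be tested. Against Df/+ alone 2 were higher, Cyp9h1 and Cyp305a1, and 1 was lower, Cyp312a1, beside 0.9% and 1.01% of all 8887 probes tested. Against su(Hw)/+ alone 1 was higher, Cyp6a13 at 1.90 (limma adjusted p = 0.040), and 1 was lower, Cyp9f2 at -1.54 (limma adjusted p = 0.038), beside 0.629% and 1.35% of all 8431 probes. The genes called thus differed with the heterozygote used, and Cyp9h1 and Cyp312a1 lay further from Df/+ than from su(Hw)/+.

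**Figure D2:**
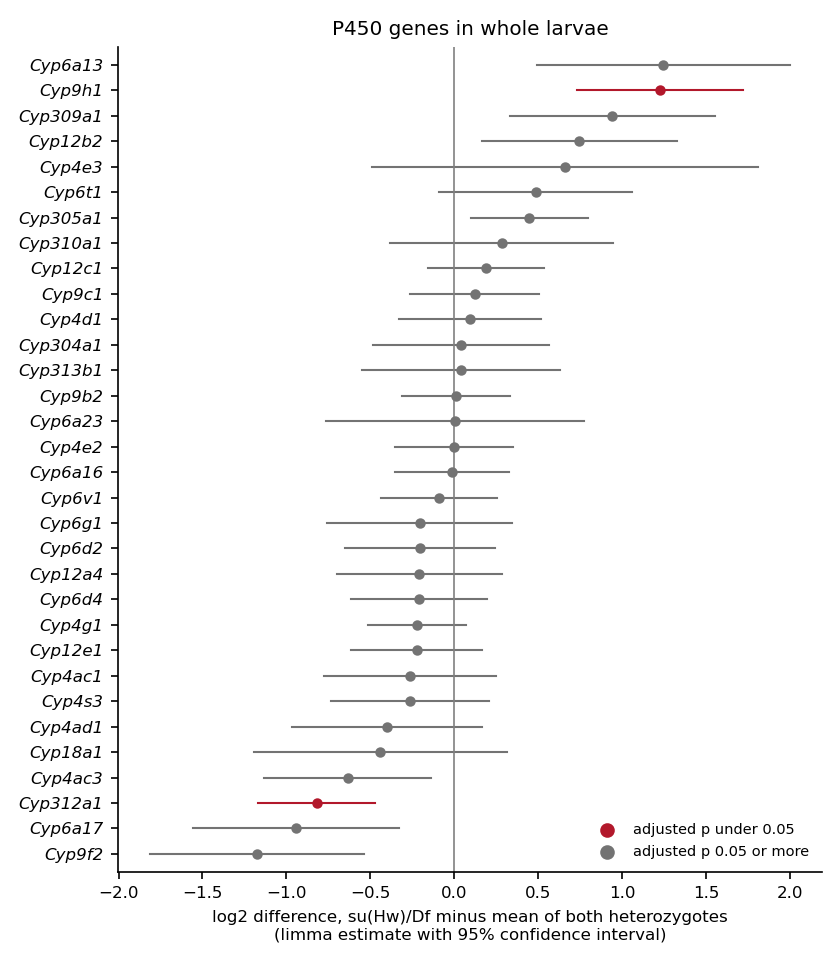
Difference between su(Hw)/Df and the mean of both heterozygotes in larvae (x axis, log2) for the 32 P450 genes tested (y axis); points are limma estimates, bars their 95% confidence intervals, and red marks an adjusted p under 0.05. Cyp9h1 at 1.22 and Cyp312a1 at -0.82 are the genes marked.

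The comparison with the pool shows each genotype against wild-type RNA. It rests on 1 control RNA per tissue, so the spread between wild-type samples is left out of its p-values, and the 3 genotypes share that pool. In su(Hw)/Df larvae 15 of 37 P450 genes tested (40.5%) were higher and 4 (10.8%) lower, beside 14.5% and 13.2% of all 9554 probes tested. In su(Hw)/+ larvae 13 of 37 (35.1%) were higher and 1 (2.70%) lower, beside 14.6% and 13.7% of 8907 probes. In Df/+ larvae 11 of 40 (27.5%) were higher and 2 (5.00%) lower, beside 9.38% and 10.3% of 9699 probes. The share of P450 genes called higher thus exceeded that of all probes in each genotype, the heterozygotes included, while the family's median stayed small, at 0.13 in the null, 0.25 in su(Hw)/+ and 0.13 in Df/+. The 43 genes without 3 null values are in none of the su(Hw)/Df counts. Without su(Hw)/+ replicate 3 the 13 higher genes of that genotype became 8. A test of each probe alone (unadjusted p under 0.01 and a mean of at least 0.8 in size) called 7 higher and 1 lower in the null. No share of all probes under that rule is given, so those counts cannot be set against the shares above. On single arrays the median over the 18 P450 genes measured on all 12 ranged from -0.47 to 0.22 in the null, from 0.03 to 0.30 in su(Hw)/+ and from -0.08 to 0.29 in Df/+, so that the family as a whole was not displaced from the pool on every array of the null.

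**Figure D3:**
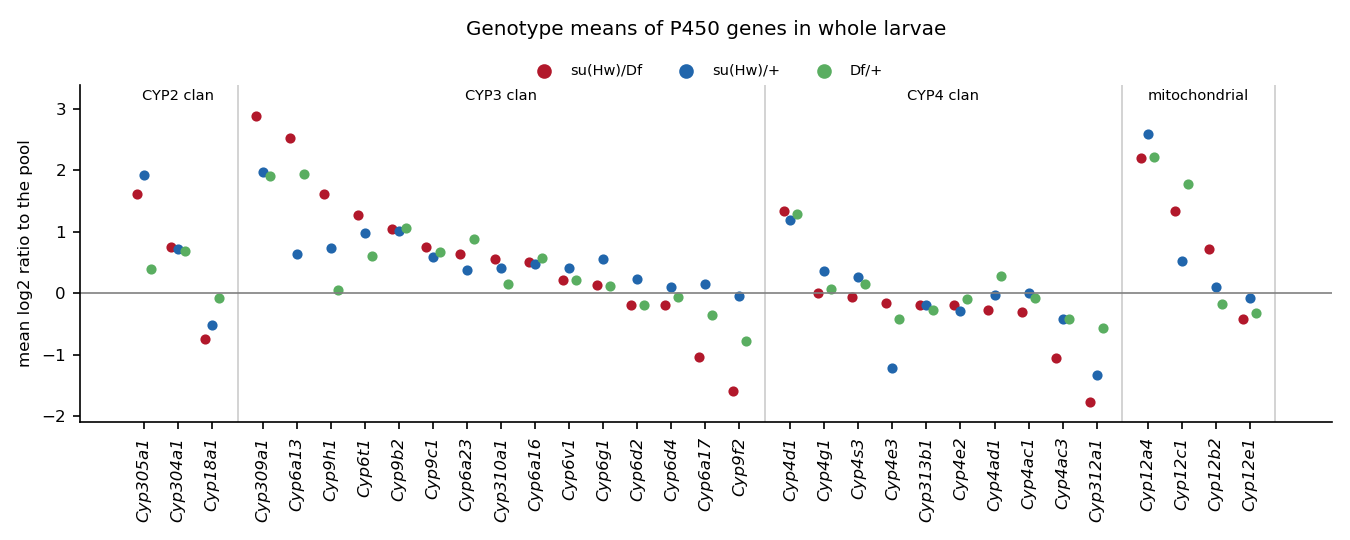
Mean log2 ratio to the pool in larvae (y axis) of every P450 gene with at least 3 values in each genotype (x axis, grouped by clan), with the null in red, su(Hw)/+ in blue and Df/+ in green. Null means lie above 2 for Cyp309a1, Cyp6a13 and Cyp12a4, and below -1 for Cyp9f2, Cyp6a17, Cyp4ac3 and Cyp312a1.

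The genes above the pool in su(Hw)/Df lay in every clan. They were 8 of 17 tested in the CYP3 clan and 2 of 13 in the CYP4 clan. In the mitochondrial clan they were 3 of 4 and in the CYP2 clan 2 of 3. Among all 9554 probes tested 14.5% were higher and 13.2% lower, and the share in the CYP4 clan was close to the first of these. Of the 4 P450 genes that were lower, 2 were of the CYP3 clan and 2 of the CYP4 clan. The higher genes lay on all major chromosome arms. They were 2 of 7 tested on 2L and 7 of 14 on 2R. On 3L they were 2 of 3, on 3R 2 of 6 and on X 2 of 7. No share of all probes by arm is given.

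In the mitochondrial clan Cyp12a4, which confers resistance to the insecticide lufenuron when overexpressed, was high in all genotypes. Its ratios were 2.16, 2.49, 2.49 and 1.67 in the null, 2.75, 2.02, 2.78 and 2.84 in su(Hw)/+ and 2.61, 1.66, 2.50 and 2.13 in Df/+. The 3 genotypes overlapped, and all 12 arrays were above the pool. The mean of 2.20 in su(Hw)/Df is 4.60-fold above the pool (limma adjusted p = 5.4e-06), and the difference from both heterozygotes was -0.21 with a 95% interval from -0.70 to 0.28. Cyp12c1 averaged 1.35 ± 0.17 in su(Hw)/Df (SD, n = 4), and Cyp12b2 had 0.68, 1.18 and 0.28 on 3 null arrays with a mean of 0.71 (limma adjusted p = 0.036). Cyp12e1 was tested and did not pass.

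In the CYP3 clan the genes furthest above the pool were Cyp309a1 and Cyp6a13. Cyp309a1 had ratios of 2.87, 2.28 and 3.50 on 3 su(Hw)/Df arrays, of 1.77, 1.48, 2.01 and 2.61 in su(Hw)/+ and of 1.74, 2.27, 1.57 and 2.07 in Df/+. Its mean of 2.88 in the null is 7.37-fold above the pool (limma adjusted p = 7.7e-06), and every measured array of the heterozygotes was also high. Cyp6a13 had 2.35, 3.04, 2.82 and 1.93 in the null, 1.49, -0.19 and 0.61 in su(Hw)/+ and 2.46, 1.30 and 2.05 in Df/+. It was thus raised in the null (mean 2.53, limma adjusted p = 7.5e-05) and in Df/+ (mean 1.94, limma adjusted p = 0.0022), whereas su(Hw)/+ averaged 0.64 and did not pass (limma adjusted p = 0.15). Cyp9b2 differed little between genotypes, with means of 1.05 ± 0.27 in the null, 1.01 ± 0.18 in su(Hw)/+ and 1.07 ± 0.14 in Df/+ (SD, n = 4 each), all past the threshold. Smaller rises in the null were called for Cyp6t1 (1.28), Cyp6u1 (0.79), Cyp9c1 (0.75) and Cyp6a16 (0.51).

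Among the falls in this clan, Cyp9f2 averaged -1.59 in su(Hw)/Df (limma adjusted p = 0.00048) and -0.78 in Df/+ (limma adjusted p = 0.040), with -0.05 in su(Hw)/+. Cyp6a17, whose product takes part in the temperature preference of adult flies, had ratios of -0.25, -1.62 and -1.26 in the null, of 0.59, 0.25, -0.07 and -0.18 in su(Hw)/+ and of -0.77, -0.15, -0.49 and 0.00 in Df/+. The lowest null values lay outside both heterozygotes and the highest did not. Its null mean was -1.04 (limma adjusted p = 0.0082).

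In the CYP4 clan both probes of Cyp4d1 were above the pool. The first had 1.22, 1.87, 1.45 and 0.78 in the null, 0.89, 1.46, 1.25 and 1.17 in su(Hw)/+ and 1.60, 1.05, 1.36 and 1.13 in Df/+. The second averaged 1.62 ± 0.63 in the null, 0.87 ± 0.33 in su(Hw)/+ and 0.98 ± 0.36 in Df/+ (SD, n = 4 each). Both probes passed in all 3 genotypes, and neither passed between su(Hw)/Df and both heterozygotes, where the differences were 0.09 (limma adjusted p = 0.87) and 0.69 (limma adjusted p = 0.19). Cyp4p1 had 1.99, 1.88, 1.91 and 0.86 in the null, 0.38 and 0.16 on the 2 su(Hw)/+ arrays with a value, and 1.92, 0.40, 1.45 and 1.00 in Df/+. It was called above the pool in su(Hw)/Df (mean 1.66, limma adjusted p = 0.00057) and in Df/+ (mean 1.20, limma adjusted p = 0.0062), and too few su(Hw)/+ values were left for a test of that genotype. Cyp4ac3 had -1.08, -0.98, -0.54 and -1.64 in the null, -0.34, -0.71, -0.14 and -0.52 in su(Hw)/+ and -0.08, -1.10, -0.44 and -0.07 in Df/+. All its arrays were below the pool, and only the null mean of -1.06 passed (limma adjusted p = 0.0015). Cyp312a1 averaged -1.77 in the null (limma adjusted p = 1.8e-06), -1.32 in su(Hw)/+ and -0.57 in Df/+, and passed in all 3.

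**Figure D4:**
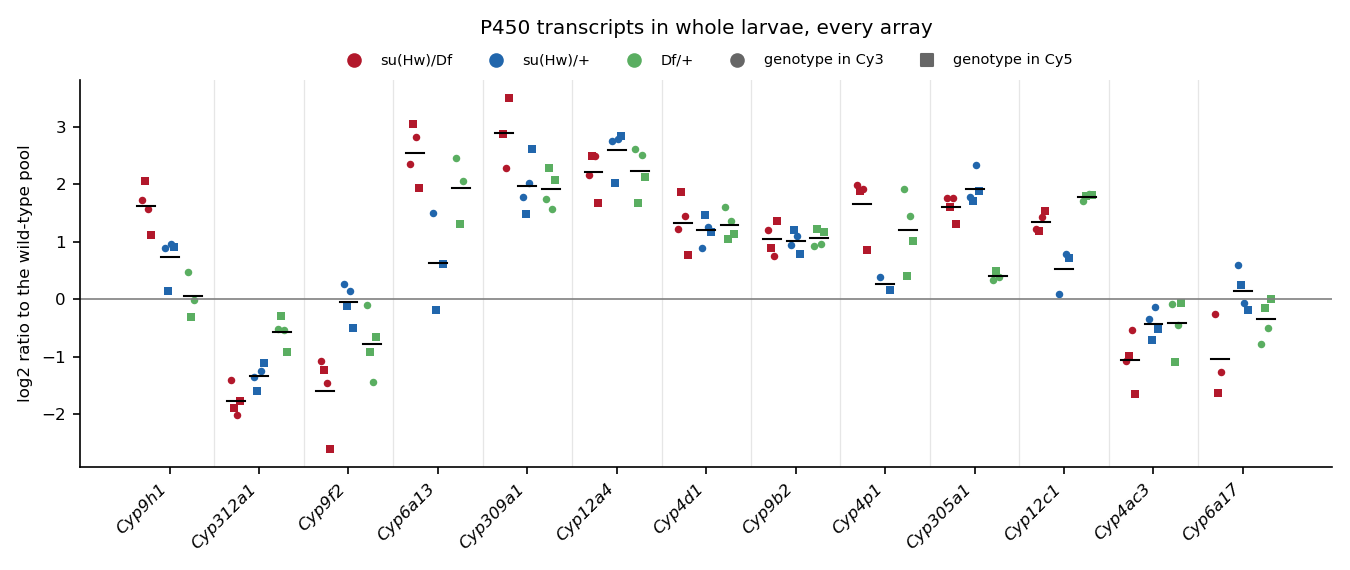
Log2 ratio to the pool on every larval array (y axis) for 13 P450 genes (x axis), with the null in red, su(Hw)/+ in blue and Df/+ in green; circles have the genotype in Cy3, squares in Cy5, and black lines are means. Cyp9h1 is the gene whose red points all lie above both other colours; Cyp305a1 and Cyp12c1 separate the heterozygotes from each other.

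The comparison of Df/+ with su(Hw)/+ shows what differs between the heterozygotes. They came from outcrosses of different stocks, so other chromosomes of those stocks cannot be told apart from the mutant chromosomes. Of 34 P450 genes tested in larvae 1 was higher and 1 was lower in Df/+, beside 0.0945% and 0.177% of all 8464 probes tested, and both genes lie on arm 3L. Cyp305a1, of the CYP2 clan, had ratios of 0.33, 0.50 and 0.38 on 3 Df/+ arrays and of 1.77, 1.70, 2.33 and 1.88 in su(Hw)/+, with 1.76, 1.60, 1.77 and 1.31 in su(Hw)/Df. Df/+ lay clearly below the other genotypes, which were 3.05-fold (null) and 3.79-fold (su(Hw)/+) above the pool. The difference was -1.52 (SE 0.20, limma adjusted p = 0.0050), and su(Hw)/Df exceeded Df/+ by 1.21 (limma adjusted p = 0.0076). Cyp12c1 had 1.70, 1.79, 1.83 and 1.81 in Df/+ and 0.10, 0.78 and 0.71 in su(Hw)/+, with 1.22, 1.18, 1.43 and 1.54 in su(Hw)/Df. It was highest in Df/+, intermediate in the null and lowest in su(Hw)/+, with no overlap between any pair of genotypes. The difference between the heterozygotes was 1.25 (SE 0.19, limma adjusted p = 0.023). That call was lost without Df/+ replicate 1, 3 or 4, with limma adjusted p-values of 0.061, 0.076 and 0.070 and differences of 1.28, 1.24 and 1.24. Without su(Hw)/+ replicate 1, 3 or 4 Cyp12c1, and without Df/+ replicate 1, 2 or 3 Cyp305a1, had too few values to test.

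Of 11 genes with well studied roles, Cyp12a4 is described above and 4 had too few larval values for a test. Cyp18a1 inactivates ecdysone, and its 2 probes disagreed in larvae. The first averaged 0.36 in the null, 0.33 in su(Hw)/+ and 0.34 in Df/+, and the second -0.74 in the null, -0.51 in su(Hw)/+ and -0.09 in Df/+, none passing. Cyp4g1, the oenocyte enzyme that completes the synthesis of cuticular hydrocarbons, had ratios of 0.12, -0.24, -0.16 and 0.26 in the null, of 0.42, 0.33, 0.49 and 0.23 in su(Hw)/+ and of -0.01, -0.02, 0.07 and 0.23 in Df/+. The null overlapped both heterozygotes, and only su(Hw)/+ passed against the pool (0.37, limma adjusted p = 0.027). Cyp4g15 averaged -0.12 ± 0.47 in su(Hw)/Df (SD, n = 4) and was not tested in Df/+. Cyp6g1, the DDT resistance gene, had 0.08, 0.93, 0.21 and -0.69 in the null, 0.41, 1.06, 0.43 and 0.35 in su(Hw)/+ and 0.49, 0.13, 0.07 and -0.24 in Df/+, and passed nowhere. Cyp310a1, which dampens Wingless signalling in the wing, averaged 0.56 in the null, 0.41 in su(Hw)/+ and 0.15 in Df/+ larvae without passing. Cyp4e3, linked to pyrethroid tolerance, had 0.05, 0.09, 0.60 and -1.37 in the null, -1.64, -0.38, -1.58 and -1.26 in su(Hw)/+ and 0.83, -2.03, 0.88 and -1.35 in Df/+, and did not pass. Its Cy3 mean was above its Cy5 mean in Df/+ (0.85 and -1.69) and in the null (0.33 and -0.64), and below it in su(Hw)/+ (-1.61 and -0.82). Cyp6a2, another insecticide-metabolising enzyme, Cyp301a1, which acts in cuticle formation, and Cyp6a20, which influences aggression in adult males, had 5, 3 and 1 larval values in all, and Cyp303a1 had none.

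P450 genes often stand side by side in the genome. By the Release 6 gene order 41 genes of the family lay in 14 runs with no other protein-coding gene between members, the largest a run of 9 on 2R. Only 3 runs held 2 or more genes tested in su(Hw)/Df against the pool, 6 genes in all, and in 0 of them were 2 neighbours called. In the run of 9, Cyp6a17 averaged -1.04 and its neighbour Cyp6a23 averaged 0.64 in su(Hw)/Df. In another run Cyp4ac3 averaged -1.06 and Cyp4ac1 -0.30. The neighbour of Cyp12a4, Cyp12a5, had 4 values in all, with -0.37 on the single su(Hw)/Df array, 0.87 on the single su(Hw)/+ array and 0.55 and 0.17 in Df/+. Close copies such as these may share signal on an oligonucleotide array, which was not tested since no probe sequence was used. The nearest member to su(Hw) in gene order was Cyp313a1, 18 protein-coding genes away, and it had no larval value.

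Companion genes of the pathway gave 1 call between the null and the heterozygotes, Ugt49B1. Of 7 ecdysone-synthesis genes with names of their own, all P450s but nvd, 3 had a probe. The mitochondrial enzyme sad averaged 1.02 ± 0.28 in null larvae, 0.75 ± 0.69 in su(Hw)/+ and 0.96 ± 0.33 in Df/+ (SD, n = 4 each), differing from both heterozygotes by 0.17 (limma adjusted p = 0.80). The early-step enzyme spok averaged -0.35 in the null, 0.03 in su(Hw)/+ and -0.22 in Df/+, and dib had no su(Hw)/Df value in larvae. Of 8 genes tested for electron supply and haem synthesis and of 6 regulators of detoxification genes, 0 passed between su(Hw)/Df and both heterozygotes. Among all 8197 probes tested 1.09% were higher and 1.76% lower. Pbgs, an enzyme of haem synthesis, differed by -0.88 and did not pass (limma adjusted p = 0.13). Against the pool cnc, the fly Nrf2 factor, was the 1 regulator above the threshold in the null, at 0.76 in larvae (limma adjusted p = 0.0015) and 0.88 in wing discs (limma adjusted p = 0.0084); it was named after its values were seen. UDP-glucuronosyltransferases conjugate the products of P450s. Beside 1.76% of all probes lower and 1.09% higher, 1 of 11 tested was lower and 0 higher in the null than in both heterozygotes. That gene, Ugt49B1, averaged -2.06 ± 0.39 in the null, -0.39 ± 0.22 in su(Hw)/+ and -1.001 ± 0.29 in Df/+ (SD, n = 4 each), a difference of -1.37 (limma adjusted p = 0.0013).

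Markers of the midgut, an organ where many P450s are active, also differed. Of 28 listed 22 had a probe and 18 were tested, and of these 1 was higher and 7 lower in su(Hw)/Df than in both heterozygotes, with a median difference of -0.80, beside 1.09% of all probes higher and 1.76% lower. Those lower encode digestive proteases (Jon65Aii, Jon65Aiii, Jon65Aiv, alphaTry, gammaTry and epsilonTry) and the lysozyme LysX, which differed most, by -2.50 (limma adjusted p = 0.00036), whereas the lysozyme LysB was higher by 2.00 (limma adjusted p = 0.020). The median over the 18 markers on single arrays ranged from -1.03 to -0.08 in the null, from -0.25 to 0.58 in su(Hw)/+ and from -0.35 to 0.88 in Df/+. Of 9 fat body markers 6 were tested, 0 passed between the null and the heterozygotes and 4 were above the pool in the null, beside 14.5% of all probes, with array medians over 4 genes from 0.68 to 0.84 in the null, from 0.17 to 0.52 in su(Hw)/+ and from 0.11 to 0.64 in Df/+. Of 12 Malpighian tubule markers 8 were tested, with a median difference from both heterozygotes of -0.41 and a lowest of -0.89. Of these 1 was higher, the zinc transporter ZnT35C by 1.34 (limma adjusted p = 0.00050), and 0 lower, beside 1.09% and 1.76% of all probes. Array medians over 6 of these genes ranged from -0.05 to 0.41 in the null, from -0.29 to 0.32 in su(Hw)/+ and from 0.18 to 0.38 in Df/+. Of 6 oenocyte markers, Cyp4g1 among them, 4 were tested and 0 passed, with array medians from -0.19 to 0.19 in the null, from 0.28 to 0.47 in su(Hw)/+ and from 0.01 to 0.27 in Df/+. The part of these organs in the P450 differences was not tested. Since values are ratios to a pool of the same tissue, the markers cannot show whether the tissue labels hold.

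In wing discs no P450 gene passed in any comparison. Against both heterozygotes 6 genes could be tested, with differences from -0.23 to 0.10, limma called 0 of them, and 0 had an unadjusted p under 0.05, while 0.0901% of all 5550 probes were called. Against the pool limma called 0 of 21 genes in su(Hw)/Df (0.873% of all 7218 probes), 0 of 8 in su(Hw)/+ (0.595% of 6559) and 0 of 18 in Df/+ (0.163% of 7347), with 1, 0 and 0 genes at an unadjusted p under 0.05. Between Df/+ and su(Hw)/+ it called 0 of 6 (0.0169% of 5928), with 1 at an unadjusted p under 0.05. Most disc ratios lay near 0. Cyp310a1 had 0.06, 0.09 and -0.15 in the null, 0.17, 0.36 and 0.07 in su(Hw)/+ and 0.06, -0.08 and -0.30 in Df/+, a difference from both heterozygotes of -0.05 with a 95% interval from -0.48 to 0.38. Cyp6d4 had the largest difference, -0.23, with an interval from -0.68 to 0.21. Array medians of wing disc markers ranged from 0.07 to 0.37 in the null, from -0.08 to 0.40 in su(Hw)/+ and from -0.46 to 0.16 in Df/+. Those of 4 fat body markers ranged from -2.42 to -0.23 in the null, from -4.06 to -1.36 in su(Hw)/+ and from -1.96 to -1.11 in Df/+. All were below 0 in every genotype. Another fat body marker, Pepck1, went the other way in the null, at 0.97 ± 0.46 (SD, n = 4). It averaged 0.52 in su(Hw)/+ and -0.12 in Df/+ (n = 3 each).

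Single disc arrays of some genes lay far from 0, such as 0.96 and 1.01 for Cyp6u1 in the null and -1.14 for Cyp4e2 in Df/+. Among the 21 P450 genes tested in su(Hw)/Df discs, Cyp18a1 had the mean furthest from the pool. Its first probe had 2.11, 2.82 and -0.11 in the null, -0.27, 1.90 and 1.38 in su(Hw)/+ and -0.27 on the single Df/+ array with a value. Its second probe had 1.41 and 1.25 in the null, 1.32, 0.85 and -0.16 in su(Hw)/+ and no value in Df/+. Both probes were high on the same 4 arrays, replicates 1 and 3 of su(Hw)/Df and replicates 2 and 3 of su(Hw)/+. Elsewhere the first probe had a value only on null replicate 4, su(Hw)/+ replicate 1 and Df/+ replicate 1. The second had a value only on su(Hw)/+ replicate 4. These values were all below 0, and no other array had both probes. The null mean of the first probe was 1.61 and did not pass (limma adjusted p = 0.36), nor did the su(Hw)/+ mean of 1.01.

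Between tissues, the difference of su(Hw)/Df from both heterozygotes could be compared for 6 P450 genes, and limma called 0 of them, with 0 at an unadjusted p under 0.05. Of all 5105 probes it called 0.0%. Against the pool 14 genes could be compared between larvae and wing discs in the null by the probe with most larval values, and 4 were higher in larvae, next to 3.92% of all 6446 probes. Cyp18a1 is not among the 14, and by its first probe, the one with enough disc values, larvae differed from discs by -1.25 with a 95% interval from -2.56 to 0.07 (limma adjusted p = 0.25). Cyp6a13 averaged 2.53 ± 0.50 in larvae (n = 4) and -0.10 ± 0.40 in discs (n = 3), Cyp4p1 1.66 ± 0.53 (n = 4) and -0.31 ± 0.27 (n = 3), Cyp4d1 1.33 ± 0.46 (n = 4) and -0.09 ± 0.23 (n = 3) and Cyp9b2 1.05 ± 0.27 (n = 4) and -0.20 ± 0.29 (n = 3), all as mean ± SD. These genes were above the larval pool on every su(Hw)/Df larval array. Without disc replicate 1, 3 or 4 of su(Hw)/Df too few values were left and 0 were called. The tissues had pools of their own, and disc RNA was amplified before labelling while larval RNA was not, so tissue and labelling method cannot be told apart.

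**Figure D5:**
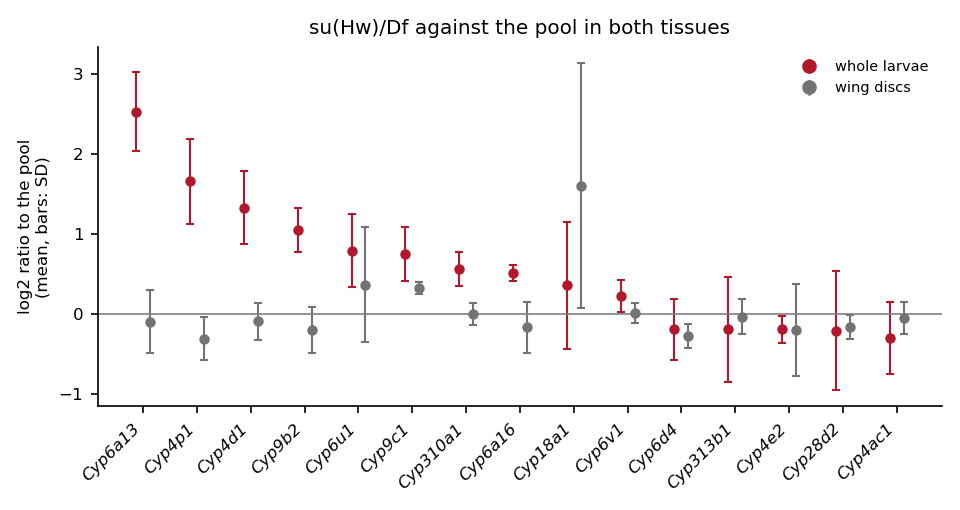
Mean log2 ratio to the pool in su(Hw)/Df (y axis, bars are SD) for the 15 P450 genes with a probe that had at least 3 su(Hw)/Df values in each tissue (x axis; Cyp18a1 by its first probe), with larvae in red and wing discs in grey. Cyp6a13, Cyp4p1, Cyp4d1 and Cyp9b2 are above 1 in larvae and just below 0 in discs, while the mean of Cyp18a1 is higher in discs, with a wide SD and a difference that did not pass.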

How the data were processed

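The authors deposited log2 ratios of genotype to pool, 1 value per spot and array, from 2-colour long-oligonucleotide arrays normalized with VSN, with dye swaps already turned and low-quality spots blank; the sources used here name no tool version. Larval RNA was labelled directly and disc RNA after amplification. For discs the methods of the study name a count of pairs unlike the labels' 6 discs. Of 15158 probes, 714 printed in more than 1 spot were left out as controls, and of the remaining 14444, 12531 had 1 gene symbol, 96 had several and 1817 none; 12494 were matched to a Release 6 gene table, used for names, arms and gene order only. Spot intensities were not used, so signal over background is unknown, and the number of arrays limits the precision. All 24 arrays had a group, and 0 value columns were unused.

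Genotype means were fitted per tissue in limma 3.58.1 (R 4.3.3) with empirical Bayes moderation, where each genotype compared had 3 or more values, and Benjamini-Hochberg adjustment over all probes tested. The threshold was 0.05. A gene stood by its probe with most values. The study names 4 independent biological replicates for each genotype, while the labels do not say whether these come from separate cultures. The p-values therefore measure the spread between these samples. The fit was tested on simulated data. Exact permutation tests, tables and plots used Python 3.11.15, pandas 2.3.3, numpy 2.4.6, scipy 1.17.1 and matplotlib 3.10.9. The members, gene lists and tests were chosen with earlier results of these data known. Genes were named if called against both heterozygotes, among the 8 largest rises or falls against the pool in larvae, called in discs, among the 5 largest called differences between the heterozygotes, or of known role, and list genes if called against both heterozygotes; others named as called or as examples of values near 0 were chosen after their values were seen. Alternatives were centring each array, a dye term, a replicate block, 4 or 2 values per genotype, only the genotypes compared, robust moderation, control probes kept, each array left out, every probe counted, single heterozygotes and a per-probe test.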

Additional observations from a re-analysis of the deposited data

Results flagged for a closer look

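Of 47 groups of 4 arrays checked for the named genes, 4 held 1 array far from the other 3, and chance alone gives about 1 in 20 groups. Cyp4p1 read 0.86 in su(Hw)/Df larval replicate 4, while the other null arrays read 1.88 to 1.99. Replicate 2 of su(Hw)/+ larvae gave the other 3 cases: Cyp12a4 read 2.02 there against 2.75 to 2.84 on the other arrays of the genotype, Cyp6g1 read 1.06 against 0.35 to 0.43, and Cyp9h1 read 0.15 against 0.90 to 0.96. The call of Cyp9h1 against both heterozygotes held without that array.

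Between larvae and wing discs the ratio of su(Hw)/Df to the pool differed by test for 4 genes, a comparison chosen after seeing the data. The larval value exceeded the disc value by 2.63 for Cyp6a13 (limma adjusted p = 0.00063), by 1.97 for Cyp4p1 (limma adjusted p = 0.0019), by 1.43 for Cyp4d1 (limma adjusted p = 0.00091) and by 1.25 for Cyp9b2 (limma adjusted p = 0.00088).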

How the results depend on the processing

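In larvae, su(Hw)/Df against both heterozygotes gave 1 P450 gene higher and 1 lower. A dye term gave 2 higher (adding Cyp6a13) and 2 lower (adding Cyp9f2). Centring each array and the replicate block gave 2 lower each. Requiring 4 values per genotype gave 0 higher, since Cyp9h1 has 3 Df/+ values, and 2 lower. Against Df/+ alone 2 were higher. Leaving out 1 array gave 0 to 1 higher, with 0 where Df/+ replicate 1, 2 or 3 was left out and Cyp9h1 could no longer be tested, and 0 to 2 lower, with 0 without su(Hw)/Df replicate 3 and 2 without su(Hw)/Df replicate 1, su(Hw)/+ replicate 4 or Df/+ replicate 3. Exact permutation tests take the plain mean of all heterozygous arrays, which gave 1.18 for Cyp9h1 and -0.82 for Cyp312a1. Without 1 array they gave differences of 1.03 to 1.34 for Cyp9h1 and -0.94 to -0.73 for Cyp312a1.

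Against the pool, a per-probe test of the mean gave 7 higher and 1 lower in su(Hw)/Df, against 15 and 4, with no share of all probes given for that rule. Leaving out 1 array gave 11 to 15 and 3 to 5. In su(Hw)/+ the 1 lower gene became 3 with centring and 2 with the dye term, the replicate block, 4 values per genotype or only the genotypes compared. Leaving out 1 array gave 8 to 14 higher there, with 8 without su(Hw)/+ replicate 3, and 1 to 2 lower. In Df/+ the 2 lower genes became 1 with 2 values per genotype or only the genotypes compared, and 0 to 2 without 1 array, with the count changed without Df/+ replicate 2, 3 or 4. Between Df/+ and su(Hw)/+, 4 values per genotype gave 0 higher and 0 lower, and only the genotypes compared gave 0 higher (Cyp12c1, limma adjusted p = 0.061). Leaving out 1 array gave 0 to 1 in each direction. The higher call was absent without replicate 1, 3 or 4 of su(Hw)/+ or of Df/+, and the lower one without Df/+ replicate 1, 2 or 3.

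In discs the replicate block gave 1 gene above the pool in su(Hw)/Df, against 0, and leaving out 1 array gave 0 throughout. The 4 tissue differences against the pool became 0 with 4 values per genotype, where 3 genes could be tested, and 10 with 2 values, where 31 could. They numbered 0 to 4 without 1 array, with 0 without su(Hw)/Df disc replicate 1, 3 or 4. Shares of all probes under these and the other changed rules of this section are not given. The counts under those rules therefore cannot be read as results about the family. Causes were not tested where none is given. Of 976 alternative values of 53 results on named genes, 13 lost and 13 gained the threshold. Estimates near 0 could change sign without passing. Without 1 array the difference from both heterozygotes ran from -0.09 to 0.28 for Cyp4d1 and from -0.47 to 0.07 for Cyp6g1.

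Replicate numbers come from the labels but did not pair the arrays. Deviations of arrays with the same number correlated at -0.03 to 0.54 in larvae (median 0.21) and -0.12 to 0.62 in discs (median 0.18). By that measure 13 of 24 arrays lay closest to one of their own number. Arrays with the same number always shared the dye orientation. With the same dye and another number the medians were 0.25 in larvae and 0.26 in discs, and with the other dye -0.19 and -0.17. Few arrays and missing spots limit the family most in discs, where 6 of 80 genes could be tested against both heterozygotes.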
